A study of Mus musculus with 8 samples.

Results

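The miRNAs miR-192, miR-194 and miR-215 were followed in 4 female and 4 male mice, 8 whole hearts in all, taken at 4 to 6 weeks from the wild-type strain C57Bl6/J, in small RNA libraries enriched for molecules under 200 nt. The members were the hairpin entries named mir-192, mir-194-1, mir-194-2 and mir-215, whatever the species of the entry. They came to 5 of 764 entries, namely 4 mouse hairpins and 1 rat entry of mir-215, and all 5 were listed in all 8 hearts. Each library was 1 heart of 1 animal, there was no treatment, and sex was the only difference the labels give between the groups. Whole hearts hold muscle, vessels, stroma and blood, and fewer cells of a type cannot be told apart from less RNA per cell.

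The pair miR-192 and miR-215 share a seed, the short stretch near the 5′ end through which a miRNA mainly recognises its target messages, and miR-194 has another seed. The genes lie in paired clusters in mammals, 1 with mir-192 and a copy of mir-194, the other with mir-215 and the second copy of mir-194. They are best known from the epithelium of gut, the liver and the kidney, where hepatocyte nuclear factors drive them, and in human cells the clusters are also induced by p53. Known targets in mouse kidney cells include the transcription factor Zeb2 for miR-192. None of them is a classical miRNA of heart muscle.

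The mature sequences are shown first because the shared seed, and the identity of the copies of miR-194-5p, decide which reads can be assigned to which gene. Sequences and positions are those of RefSeq for GRCm38, the assembly of the build mm10 named by the submitters, and 4 of 4 mouse hairpins matched by name. Bases 2 to 8, the seed, are in capitals, and each sequence runs 5′ to 3′.
miR-192-5p: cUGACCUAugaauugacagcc
miR-215-5p: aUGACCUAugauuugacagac
miR-194-5p: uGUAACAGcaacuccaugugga
miR-194-1-3p: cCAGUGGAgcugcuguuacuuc
miR-194-2-3p: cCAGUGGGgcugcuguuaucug
Counted from 1 at the 5′ end, miR-215-5p differed from miR-192-5p by 3 substitutions, C1A, A12U and C20A, and was identical at the other 18 of 21 positions. Only these 2 of 1679 mature mouse names in the table carry the seed UGACCUA, and miR-194-5p alone carries GUAACAG. The 3′ arms of the copies of mir-194 differed by A8G, C19U, U20C and C22G, so the last base of the seed differs between them.

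The hairpin Mir192 lies on chromosome 19 (chr19:6264844-6264932, plus strand), and Mir194-2 lies 115 bases before it on the same strand (chr19:6264643-6264728). No annotated gene of GENCODE vM21 overlaps them. The nearest ones are Atg2a, an autophagy gene ending 2307 bases before Mir194-2, and the noncoding Gm14963. The latter runs on the other strand, with its nearer end 3862 bases after Mir192. The second cluster lies on chromosome 1, with Mir194-1 (chr1:185313319-185313385, plus strand) and Mir215 (chr1:185313581-185313692, plus strand) 195 bases apart. It sits within an intron of Iars2, the gene of the mitochondrial isoleucyl-tRNA synthetase, which runs on the other strand. On the same strand the noncoding 2010103J01Rik covers both hairpins, Mir194-1 in an intron and Mir215 overlapping an exon.

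The libraries held 29900500 to 38894987 counts on hairpins. Mature arm counts were scaled to CPM, counts relative to the mature total of a library, with TMM factors, which correct for a few abundant miRNAs taking up reads. The factor was 1.41 in female replicate 3 and 0.845 to 1.06 in the other hearts, and this heart is named wherever a result rests on it. The labelled tissue showed its defining miRNAs in every heart, with miR-499-5p, encoded within Myh7b, at 2863 to 7685 CPM and miR-208a-3p, encoded within the myosin gene Myh6, at 158 to 502 CPM. No exact, entry-specific read count took a value from 1 to 9, the pattern a minimum of 10 copies would leave, so a count of 0 sets no upper limit here.

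miR-192-5p was the most abundant member, ranked 67 of 683 miRNAs by mean level. It had 731, 621, 322 and 764 CPM in female replicates 1 to 4 and 803, 706, 656 and 893 CPM in male replicates 1 to 4. The sexes overlapped, and female replicate 3 was the lowest heart. Females averaged 609 ± 201 CPM and males 764 ± 106 CPM (SD, n = 4).

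miR-194-5p, made by a hairpin of each cluster, ranked 128 of 683. It had 124, 140, 124 and 103 CPM in the female hearts and 107, 128, 125 and 150 CPM in the male hearts, in the order of the replicates. The sexes overlapped, and female replicate 3 lay among the other hearts with TMM factors. Scaled by library size alone, it was the highest of the 8 at 175 CPM, against 90.3 to 147 CPM in the others. The means were 123 ± 14.8 CPM and 127 ± 17.8 CPM (SD, n = 4).

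miR-215-5p, which has the seed of miR-192-5p, was the scarcest of the 5′ arms, ranked 229 of 683. It had 14.1, 17.4, 6.78 and 21.3 CPM in the female hearts and 26.2, 27.6, 23.5 and 25.1 CPM in the male hearts. All 4 female hearts lay below all 4 male hearts, and female replicate 3 was again the lowest. The means were 14.9 ± 6.18 CPM and 25.6 ± 1.73 CPM (SD, n = 4).

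The order of the members was the same in all 8 hearts, since the lowest miR-192-5p value (322 CPM) exceeded the highest miR-194-5p value (150 CPM) and the lowest of those (103 CPM) exceeded the highest miR-215-5p value (27.6 CPM). The mature forms are 21 or 22 bases long. The lengths of the counted reads are not given, and the efficiency of ligation and amplification of each sequence is unknown. Together the members took up 0.0772% ± 0.00961 of the mature reads of females and 0.0861% ± 0.00530 of those of males (SD, n = 4). The difference was -0.00890 percentage points (exact permutation test, two-sided, p = 0.143, adjusted p over 5 such tests 0.238). Without female replicate 3 it was -0.00448, and with exact matches alone -0.000445 (exact permutation p = 1).

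**Figure D1:**
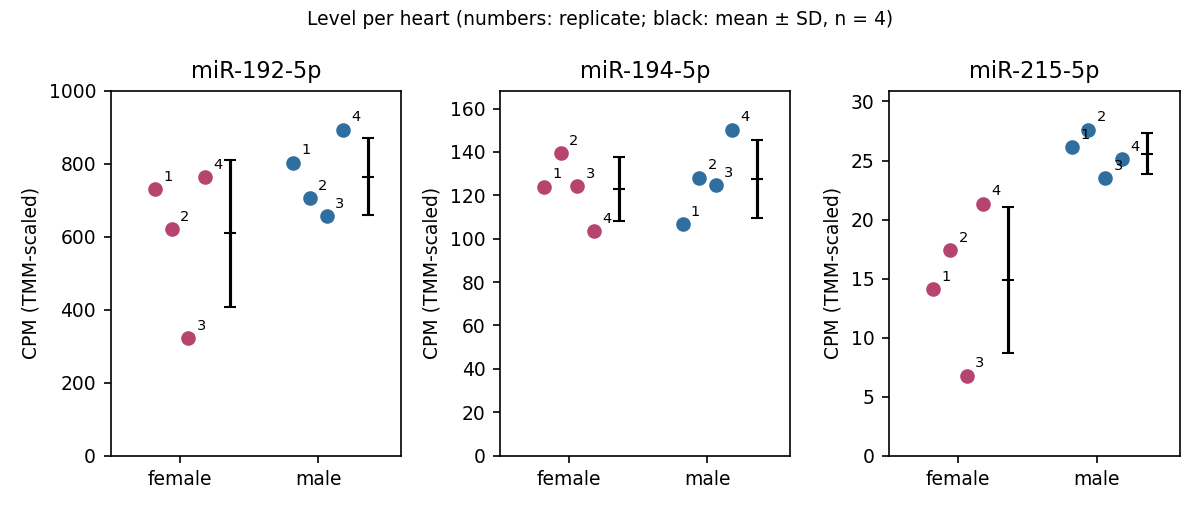
Level of each 5′ arm in CPM (y axis, from 0, a different range in each panel) in every heart, by sex, with the replicate number beside each point and the mean ± SD (n = 4) in black. The 4 female points of miR-215-5p, 6.78 to 21.3 CPM, lie below the 4 male points, 23.5 to 27.6 CPM, while the sexes overlap for miR-192-5p and miR-194-5p.

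Whether the sexes differed was tested for every miRNA in 1 fit, the edgeR quasi-likelihood test over 562 miRNAs with Benjamini-Hochberg adjustment. Of these, 0 passed an adjusted p of 0.05 (percent called 0), 28 had an unadjusted p under 0.05 (4.98%), and no member passed. For miR-215-5p the log2 fold change, female minus male, was -0.78 (SE 0.30), with an unadjusted p of 0.0235 in the quasi-likelihood fit across all miRNAs, the 13th smallest, and an adjusted p of 0.801. It was 1 of 7 miRNAs, or 1.25% of those tested, with all female values below all male values, while 10 (1.78%) had all female values above. Without female replicate 3 the log2 fold change was -0.49 (SE 0.19, edgeR adjusted p = 0.785).

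In the same edgeR fit miR-192-5p had a log2 value of -0.33 (SE 0.26, adjusted p = 0.815), or -0.07 (SE 0.15) without female replicate 3. miR-194-5p had -0.05 (SE 0.19, edgeR adjusted p = 0.969), and its sign turned under other scalings. Scaling by library size alone moved the median over all miRNAs from -0.06 to 0.13. Relative to that median, miR-215-5p lay at -0.72 with TMM factors and -0.79 with library size alone, miR-192-5p at -0.27 and -0.33, and miR-194-5p at 0.00 and 0.01.

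The values of miR-215-5p were the sum of the mouse entry and the rat entry, whose reads were all unique to their entry. The mouse entry had 10.9, 12.8, 4.75 and 14.3 CPM in the female hearts and 21.8, 20.4, 17.3 and 17.7 CPM in the male hearts. Here, too, the female hearts lay below the male hearts. The rat entry had 3.22, 4.59, 2.04 and 7.06 CPM in the female and 4.37, 7.23, 6.21 and 7.44 CPM in the male hearts, and the sexes overlapped. Fitted separately, the log2 fold change was -0.80 (SE 0.31, edgeR adjusted p = 0.827) for the mouse entry and -0.53 (SE 0.36, adjusted p = 0.827) for the rat entry. The rat entry supplied 28.1% ± 4.42 of miR-215-5p among females and 24.7% ± 5.58 among males (SD, n = 4), and 33.7% to 35.7% of its counts on average matched the mature sequence listed for it exactly, against 26.1% to 27.0% in the mouse entry. Why reads of mouse hearts were listed there was not tested.

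Ratios between members do not depend on the scaling of a library. A minimum of 10 copies could act more on a scarce member, and its part in these ratios was not tested. The ratio of miR-192-5p to miR-215-5p counts was 51.8, 35.63, 47.4 and 35.8 in the female hearts and 30.7, 25.6, 27.9 and 35.60 in the male hearts. All female ratios lay above all male ratios, although female replicate 2 and male replicate 4 nearly met. The log2 ratio of miR-215-5p to miR-192-5p had a mean difference, female minus male, of -0.50 (exact permutation test, two-sided, p = 0.0286, the smallest that 4 against 4 can give, adjusted p over 5 such tests 0.143), with 4 of 4 female hearts lower. This ratio was chosen after the levels had been seen, and with mouse entries alone its p was 0.0571.

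miR-192-5p and miR-215-5p were also set against miR-194-5p, the sum of both copies, so neither ratio is confined to a single cluster. miR-192-5p held 5.89, 4.45, 2.59 and 7.38 counts for each count of miR-194-5p in the female hearts and 7.52, 5.51, 5.26 and 5.95 in the male hearts. Female replicate 3 was the lowest, and the sexes overlapped. The log2 ratio differed by -0.34, female minus male (exact permutation p = 0.429, adjusted p 0.536), within the spread between hearts, and by -0.0526 without female replicate 3. miR-215-5p held 0.114, 0.125, 0.0546 and 0.206 counts for each of miR-194-5p in the female hearts and 0.245, 0.216, 0.188 and 0.167 in the male hearts. Female replicate 4 lay above male replicates 3 and 4, and the log2 ratio differed by -0.84 (exact permutation p = 0.0857, adjusted p 0.214). It was -0.50 without female replicate 3, and this comparison had not been planned.

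The copies of miR-194-5p could be told apart only through bases next to the mature sequence, which is the same in both hairpins. The stretches below hold the mature sequence in capitals with 3 bases on either side in lower case.
mir-194-1: gggUGUAACAGCAACUCCAUGUGGAcug
mir-194-2: cucUGUAACAGCAACUCCAUGUGGAagu
Counted from 1 at the first base shown, mir-194-2 differs from mir-194-1 by G1C, G2U and G3C before the mature sequence and by C26A, U27G and G28U after it. A read that stops within positions 4 to 25 fits either copy.

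Most reads could not be assigned. Over the 8 hearts, mir-194-1 was listed with 15574 counts on its 5′ arm and mir-194-2 with 17478, of which 394 and 2287 were unique to that copy. Reads unique to a copy made up 8.86% ± 1.16 of miR-194-5p among females and 7.56% ± 1.43 among males (SD, n = 4). In every heart more of them were unique to mir-194-2, the copy beside mir-192, with 282, 323, 428 and 266 counts in the female hearts and between 213 and 303 in the male hearts. For mir-194-1 the counts were 39, 81, 53 and 51, and 38, 55, 49 and 28.

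The copy beside mir-192 thus held 85.2% ± 4.10 of copy-specific reads among females and 85.5% ± 2.03 among males (SD, n = 4). The log2 ratio of the copies differed by 0.00 between the sexes at 2 decimals (exact permutation test, two-sided, p = 0.943, adjusted p over 5 such tests 0.943). Copy-specific reads were the ones with bases beyond the shared sequence or other differences, and bases added after transcription were not examined. The share of copy-specific reads thus need not hold for the reads that fit either copy. A minimum of 10 copies could also remove more reads of the scarcer copy, and its part in this share was not tested.

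**Figure D2:**
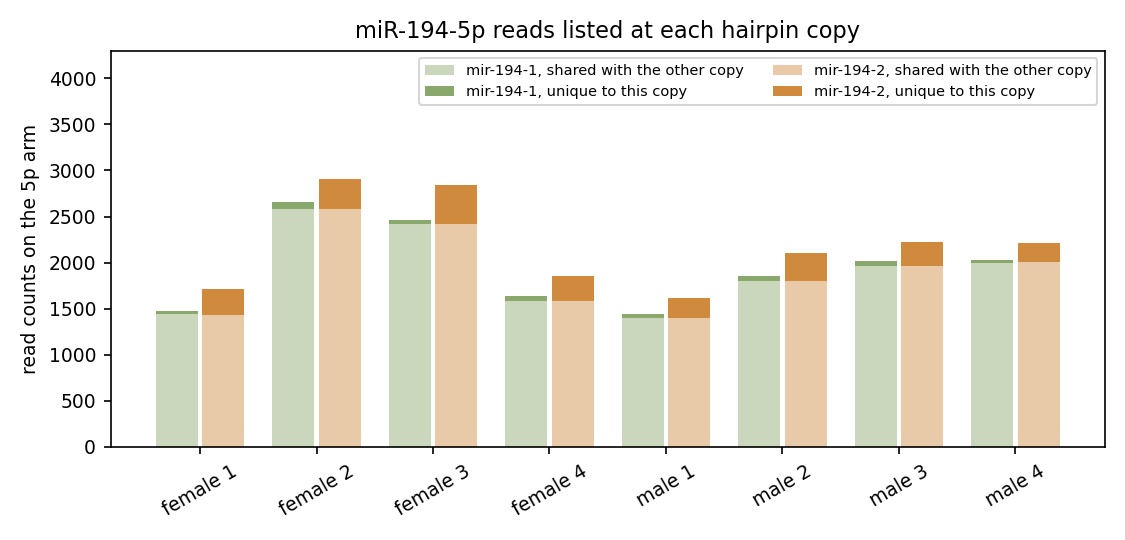
Read counts on the 5′ arm (y axis, from 0) of mir-194-1 and mir-194-2 in each heart, with reads shared by the copies in the pale part of a bar and reads unique to 1 copy in the dark part. The pale parts of a pair are nearly equal, 1402 and 1402 in male replicate 1, and the dark part of mir-194-2 is the larger in every heart.

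The shared reads carried the pattern of an even division between the copies. The exact matches to miR-194-5p, which are 1 sequence, were listed at mir-194-1 and mir-194-2 with 259 and 258 counts in female replicate 1 and with 239 and 238 in male replicate 1, and with equal counts in the other 6 hearts. Counting each read at every entry would give equal numbers, while splitting an odd number evenly leaves a difference of 1. Across all 33 arms of mouse hairpins listed in 2 copies with shared exact reads, 102 of 212 comparisons within a heart differed by 0, 110 differed by 1 and 0 by more. The summed level of miR-194-5p given above takes the shared reads as divided, and how they were counted is not stated in the sources used here.

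The 3′ arms had few or no listed counts. miR-192-3p and miR-215-3p were at 0 in all 8 hearts. miR-194-1-3p had 0, 0, 0 and 13 counts in the female and 13, 0, 10 and 13 in the male hearts. miR-194-2-3p had 23, 0, 18 and 12 counts in the female and 17, 11, 11 and 11 in the male hearts, and was seen in 7 of 8. All counts above 0 lay between 10 and 23, close to a possible minimum of 10, so a 0 and a 10 may differ little. Among 141 hairpins with a mean of at least 10 counts on each arm, mir-194-2 alone of the members could be tested for arm use, and 0 hairpins passed (limma, percent called 0). The 5′ arm exceeded the 3′ arm by a log2 ratio of 8.29 ± 2.85 among females and 7.31 ± 0.520 among males (SD, n = 4). These differed by 0.99 (SE 1.26, limma adjusted p = 0.774), or by -0.42 (SE 0.40) without female replicate 2, the heart with 0 counts. Most 5′ counts of mir-194-2 fit either copy, so the size of these ratios depends on how shared reads were divided.

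A large part of the mir-192 reads lay outside the listed mature arms. Such reads made up 21.1% ± 1.602 of the counts of the hairpin among females and 21.6% ± 2.06 among males (SD, n = 4), from 18.6% in male replicate 4 (Wilson 95% interval 18.2 to 19.1, counting error only) to 23.5% in male replicate 3 (23.0 to 24.0). Over the 8 hearts they came to 47835 counts, 22013 of which matched the hairpin exactly. The share was 7.20% for the mouse mir-215, 6.23% for mir-194-1 and 5.62% for mir-194-2, against a median of 3.32% over 246 mouse hairpins with at least 1000 counts, and mir-192 ranked 35th. Where on the hairpin these reads lie is not given by the tables. With them added, edgeR put miR-192-5p at -0.27 on the log2 scale, female minus male (SE 0.23, adjusted p = 0.805).

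Within the mature arms, exact matches made up 15.2% ± 2.19 of miR-192-5p reads among females and 14.2% ± 2.54 among males (SD, n = 4). For mir-194-2 these shares were 15.1% ± 0.778 and 13.1% ± 2.45, and for mir-194-1 17.1% ± 1.10 and 14.6% ± 2.96 (SD, n = 4). The remaining reads carried other ends or bases, which the tables do not list one by one.

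Levels of other miRNAs known from gut, liver, kidney and related epithelia were set beside the members. The hepatocyte miRNA miR-122-5p, by far the main miRNA of liver, had 1.71, 2.76, 2.29 and 1.10 CPM in the female and 7.45, 2.72, 2.15 and 1.10 CPM in the male hearts. Its highest value was 7.45 CPM, and the lowest of miR-192-5p was 322 CPM. The pancreatic islet miRNA miR-375-3p lay between 0 and 0.860 CPM.

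Of 7 epithelial miRNAs all 7 were listed, and their summed level was 42.0 to 72.1 CPM in female and 42.3 to 55.7 CPM in male hearts. Most of it came from miR-200a-3p, miR-200b-3p and miR-200c-3p, which hold epithelial cells in their state by repressing Zeb1 and Zeb2, and each of these lay between 7.97 and 26.8 CPM. miR-205-5p, of stratified epithelium, was at 0 in 7 of 8 hearts and miR-141-3p, a partner of miR-200c, in 3 of 8. Of 3 intestinal miRNAs miR-31-5p was the 1 with a value, at 11.9 to 37.1 CPM in female and 13.9 to 83.5 CPM in male hearts, and it was highest in male replicate 1.

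Of 4 kidney tubule miRNAs 3 had values, nearly all of it miR-204-5p, which is also known from the eye. Their summed level was 132 to 187 CPM in female and 178 to 227 CPM in male hearts, and the sexes overlapped. miR-204-5p (129 to 223 CPM) overlapped the range of miR-194-5p, while miR-211-5p and miR-196b-5p reached at most 3.74 CPM. The 3 red cell miRNAs had a summed level of 54.6 to 213 CPM in female and 154 to 1176 CPM in male hearts. The hepatocyte, intestinal, kidney, red cell and endothelial lists had the lower mean in female hearts. The cardiac muscle, epithelial and pancreatic lists had the higher mean there. In several lists 1 heart weighed on the mean. Male replicate 1 had 7.45 CPM in the hepatocyte list, against 1.10 to 2.72 CPM in the other male hearts. Male replicate 2 had 1176 CPM in the red cell list, against 154 to 424 CPM. Female replicate 2 had 72.1 CPM in the epithelial list, against 42.0 to 54.5 CPM in the other female hearts, and 8200 CPM in the cardiac muscle list, against 4048 to 5249 CPM. The sexes overlapped in every list, and the hepatocyte, intestinal and pancreatic lists had values for a single miRNA each. Within the epithelial list miR-200c-3p, miR-203-3p and miR-141-3p had the lower mean in female hearts, and the other members the higher. The endothelial list ran from a summed level of 54028 to 88373 CPM in females against 73378 to 125036 CPM in males, with its lowest value in female replicate 3. The part of these lists in the values of miR-192-5p, miR-194-5p and miR-215-5p was not tested.

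**Figure D3:**
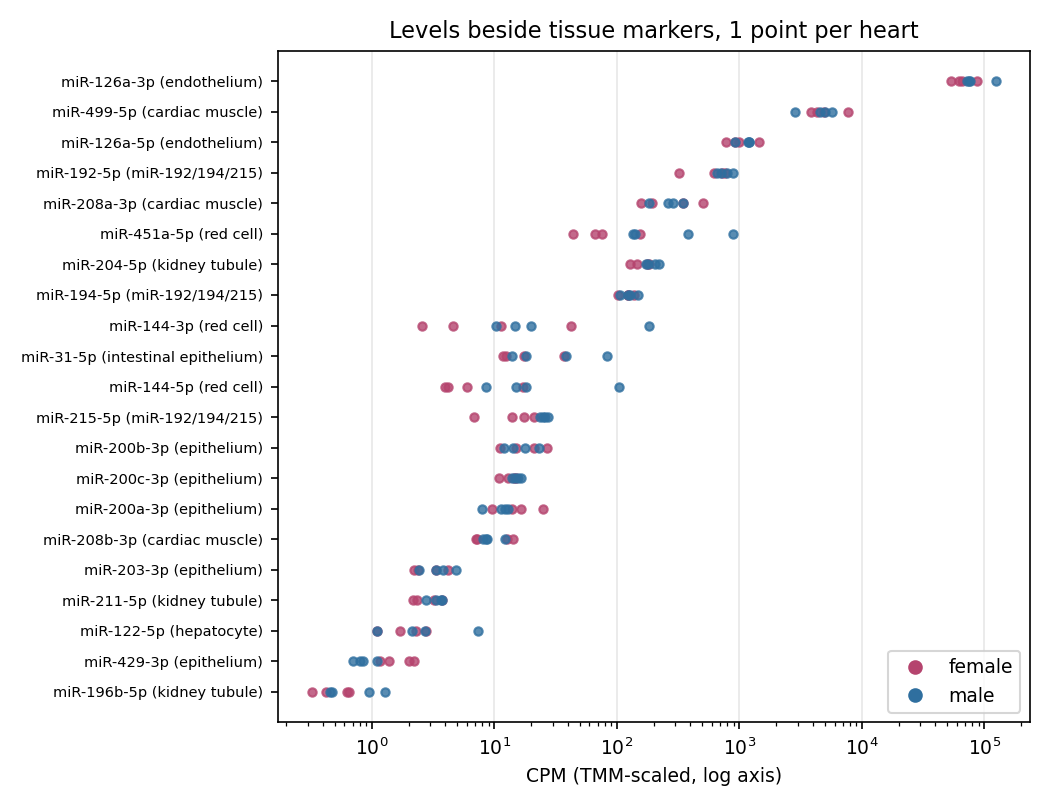
CPM on a log axis (x axis) of the 5′ arms of miR-192, miR-194 and miR-215 and of the tissue marker miRNAs above 0 in every heart, 1 point per heart, ordered by mean, with the list of each miRNA in brackets. miR-192-5p lies above miR-208a-3p on average, and miR-122-5p, the liver marker, lies between 1.10 and 7.45 CPM.

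Covariation over the 8 hearts was computed on log2 CPM for the 3 pairs of 5′ arms. Only the pair of miR-192-5p and miR-194-5p had been planned. The r of miR-192-5p or miR-215-5p with miR-194-5p, which sums the copies of both clusters, depended on the scaling and the reads used. For miR-192-5p and miR-194-5p, Pearson's r was -0.02 (exact permutation p = 0.962) and Spearman's rho -0.14 (exact permutation p = 0.752), with adjusted p over the 3 pairs of 0.962 and 0.752. Without female replicate 3 and male replicate 4, the hearts farthest from the median of miR-192-5p, r was -0.88 (n = 6, exact permutation p = 0.0319), so the relation changed with these hearts. Over all 8 hearts r was -0.60 with library size alone (exact permutation p = 0.121) and -0.48 with exact matches alone (exact permutation p = 0.227). For miR-194-5p and miR-215-5p, r was -0.04 (exact permutation p = 0.940) and rho 0.19 (exact permutation p = 0.665), with adjusted p of 0.962 and 0.752, and without female replicate 4 and male replicate 4 r was -0.20. With library size alone r was -0.38 (exact permutation p = 0.356), and with exact matches alone -0.54 (exact permutation p = 0.173).

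The seed partners from different chromosomes, miR-192-5p and miR-215-5p, had r = 0.88 (exact permutation p = 0.0261, adjusted p over the 3 pairs 0.0784) and rho = 0.55 (exact permutation p = 0.171, adjusted p 0.513). Without female replicate 3 and male replicate 4, r was 0.25 (n = 6, exact permutation p = 0.618), and without female replicate 3 alone it was 0.36 (exact permutation p = 0.422). Without female replicate 2, r was 0.88 with an exact permutation p of 0.0544. With the mean of each sex subtracted, r over all 8 hearts was 0.88 for this pair. It was -0.10 for miR-192-5p and miR-194-5p and -0.21 for miR-194-5p and miR-215-5p. Over all 8 hearts r was 0.85 with library size alone (exact permutation p = 0.00675) and 0.93 with exact matches alone (exact permutation p = 0.00233). With TMM factors on all mature reads, the relation rested on female replicate 3. Whether it rests on this heart with library size alone or with exact matches was not tested.

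**Figure D4:**
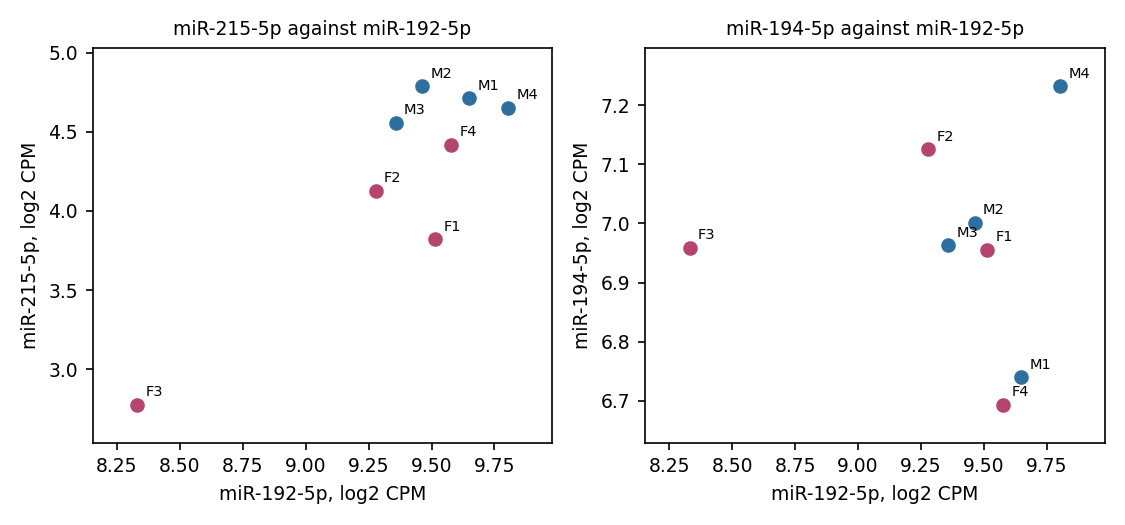
log2 CPM of miR-215-5p (left, y axis) and miR-194-5p (right, y axis) against log2 CPM of miR-192-5p (x axis), 1 point per heart labelled by sex (F, M) and replicate. Female replicate 3 stands apart at the lower left of the first panel with 2.78 and 8.33, and the second panel, with r = -0.02 over the 8 hearts, has it at the far left at a middle level of miR-194-5p.

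The miRNAs whose level over the hearts was most like that of miR-192-5p were sought among 275 others with a mean of at least 10 CPM, as a description with no test. They were miR-148a-3p (r = 0.97), let-7f-5p (0.95), miR-30c-5p (0.93), miR-100-5p (0.93) and miR-98-5p (0.93). Without female replicate 3, r was 0.94 for miR-148a-3p and 0.33 to 0.66 for the other 4. The median r over the 275 was 0.21, and miR-215-5p would rank 17th and miR-194-5p 168th. Those most like miR-194-5p were miR-214-5p (0.94), a human entry miR-499a-5p (0.89), miR-339-3p (0.88), miR-30d-3p (0.86) and miR-24-2-5p (0.79), and without female replicate 3 these had r from 0.80 to 0.98. No member was among them, as miR-192-5p would rank 137th and miR-215-5p 142nd.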

How the data were processed

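Small RNA from 8 single hearts was sequenced, and the authors deposited 1 table of read counts per heart, which per the file headers lists each miRNA hairpin entry of mouse, human or rat with reads on the mature 5′ arm, on the mature 3′ arm and elsewhere on the hairpin. STAR and the build mm10 are listed in the submitters' processing notes, without version or role. How reads were trimmed, filtered and counted is not given in the sources used here. No column of another sample was used.

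Entries of the same name and arm were summed over species, and so were numbered copies if fewer than 50% of mouse reads could be assigned to a single copy, which gave 683 miRNAs. The sexes were set against each other in edgeR 4.0.16 (quasi-likelihood F-test, TMM, sex alone, filterByExpr with a minimum count of 10 and total of 15, R 4.3.3), which kept 562 miRNAs. Standard errors were derived from the log2 fold change and its F statistic. Arm ratios (pseudocount 0.5) were fitted with limma 3.58.1 and single values tested with exact permutations over 70 arrangements (SciPy 1.17.1). DESeq2 1.42.0 and limma-voom were alternatives. Scripts were tested on simulated data. Depth was 29169537 to 37791810 mature counts per heart, and intervals cover counting error only.

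Named were all members, the 5 miRNAs most like miR-192-5p and miR-194-5p over the hearts, and the marker lists. The members, lists and rules were chosen with earlier results of these data known. Replicate numbers were not taken as pairs.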

Additional observations from a re-analysis of the deposited data

Results flagged for a closer look

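In male replicate 4 the log2 ratio of reads unique to mir-194-2 to reads unique to mir-194-1 was 2.92, against 2.38 to 2.47 in the other male hearts, a gap that as a share of the range of the 4 hearts was only just over Dixon's 95% critical value. It rests on 28 reads unique to mir-194-1 in that heart. Of 18 groups of 4 hearts examined this was the 1 with a heart set apart, and chance sets apart about 1 in 20 such groups.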

How the results depend on the processing

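The log2 fold changes of miR-192-5p and miR-215-5p, the member share and the log2 ratios of miR-192-5p and of miR-215-5p to miR-194-5p kept their sign, though not their size, and none of the 5 came under an adjusted p (or, for shares and ratios, a p) of 0.05 in the alternatives run. For miR-215-5p the log2 fold change ran from -1.004 to -0.49 with adjusted p from 0.316 to 0.996, and with the replicate block it was -0.89 (edgeR adjusted p = 0.316). For miR-192-5p it ran from -0.45 to -0.07, for its log2 ratio to miR-194-5p from -0.56 to -0.05, and for that of miR-215-5p to miR-194-5p from -1.14 (without female replicate 4) to -0.50 (without female replicate 3).

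The sign of miR-194-5p turned with upper quartile factors (0.0508), library size alone (0.14), no filter (0.0297), exact matches (0.28), the mir-194-2 entry alone (0.00174) and reads outside the mature arms added (0.0438), the last chosen after seeing the data, and ran from -0.12 to 0.0903 when each heart was left out. miRNAs called over the whole table numbered 0 with edgeR, 3 with DESeq2, 1 with no filter, with at least 10 CPM in 4 libraries, with mouse entries, with exact matches or with the replicate block, and 0 to 2 when each heart was left out (2 without female replicate 3), and none was a member.

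The log2 ratio of miR-215-5p to miR-192-5p was -0.57 with mouse entries (exact permutation p = 0.0571) and -0.50 with the replicate block, where the smallest p is 0.125, and from -0.59 to -0.40 when each heart was left out, where the smallest p is 0.0571. The copy ratio of mir-194 ran from -0.16 to 0.18, the arm difference of mir-194-2 from -0.42 to 1.69. The r of miR-192-5p was -0.88 with miR-194-5p and 0.25 with miR-215-5p without its 2 farthest hearts. When each heart was left out, r ran from -0.35 to 0.13 for miR-192-5p and miR-194-5p, from 0.36 to 0.95 for miR-192-5p and miR-215-5p, and from -0.25 to 0.13 for miR-194-5p and miR-215-5p. mir-192 had no arm ratio and mir-194-2 none with exact matches, as too few counts were listed on the 3′ arm. Apart from these, the cause of the changes was not tested. Listed 3′ arm counts were few, and the part of a possible minimum of 10 counts in them was not tested.

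Same-numbered hearts of the sexes had deviations from the group means correlated with r of 0.33, 0.27, 0.20 and 0.00 for numbers 1 to 4. The highest r with another number was 0.06, 0.16, -0.05 and 0.11, so numbers 1 to 3 correlated best with their own and number 4 did not. The labels give no shared litter, batch or day, and taking the numbers as pairs would need an r over 0.1 in all 4, so the replicate block is given here alone, as a hint from the data.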
